A study of Mus musculus with 24 samples.

Results

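Total RNA polymerase II (Pol II) was mapped by chromatin immunoprecipitation and sequencing (ChIP-seq) in mouse macrophages given lipopolysaccharide (LPS) for 45 min and in untreated macrophages. The members are the peaks of the 4 libraries made with the antibody against total Pol II (sc-899), which hold 105080 of the 756484 peaks in the 24 libraries of the series. The cells were bone marrow-derived macrophages (BMDM), that is, macrophages grown in culture from bone marrow, taken on day 7 of their differentiation from mice of the strain FVB/Hsd. All of them carried a retroviral vector and were selected with puromycin. The groups were a short hairpin against Wdr82 (shWdr82, hairpin sh1137) with LPS at 10 ng/ml, shWdr82 untreated, a scrambled hairpin with the same LPS, and scrambled untreated, with 1 library in each. WDR82 takes part in complexes that methylate lysine 4 of histone H3 and in a phosphatase complex that acts in transcription termination. The sample titles give 45 min of LPS for Pol II, whereas the treatment text speaks of 4 h for the whole series, and the time used here is that of the titles. The knockdown rests on 1 hairpin. Neither its depth nor the macrophage identity of the cells was checked here, because peak lists hold no expression values and no gene names were joined to them.

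Pol II is the enzyme that transcribes protein-coding genes. It gathers at promoters, where it often pauses shortly after the start, and is released into the gene body by phosphorylation of its C-terminal repeats, also at serine 2 (Ser2P). LPS is a bacterial cell wall component that macrophages sense through Toll-like receptor 4, which within minutes activates NF-kB and other factors, loads Pol II on inflammatory genes and starts transcription at enhancers. H3K4me3 marks promoters, H3K4me1 away from H3K4me3 marks enhancers, H3K27ac marks active promoters and enhancers, and H3K36me3 is laid down over the bodies of transcribed genes.

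An LPS peak was called gained where no untreated peak of the same hairpin overlapped it by 1 bp, and an untreated peak was called lost where no LPS peak did. All other peaks were kept. Each peak was put in the first class it overlapped among H3K4me3, distal H3K4me1 (2500 bp or more away from H3K4me3) and H3K36me3, or in the class with none of these marks. With this order, a peak in the distal H3K4me1 class may also overlap H3K36me3. The mark lists were those of untreated control cells, with an empty vector for H3K4me3 and a scrambled hairpin for H3K4me1 and H3K36me3. A lost peak is one that the peak caller no longer listed, and signal below its threshold may remain there. Since every group is a single library, the spread between replicates is unknown and no test was run, and the 95% intervals (exact binomial for shares) cover counting error only. Read depth is unknown.

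The LPS lists were shorter than the untreated ones with both hairpins. There were 22307 peaks in the shWdr82 LPS library against 28497 in the shWdr82 untreated library, and 21891 in the scrambled LPS library against 32385 in the scrambled untreated library. The score distributions of the 4 lists were close, with medians of 211, 211, 207 and 208 in that order. Their median widths differed in opposite directions, at 2265 bp with LPS against 2382 bp untreated in shWdr82 cells, and 2377 bp with LPS against 2200 bp untreated in scrambled cells. The part that list length, depth or enrichment plays in the shares below was not tested.

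Gained Pol II peaks lay away from H3K4me3. In shWdr82 cells 7222 LPS peaks were gained, which was 32.4% of the list, and in scrambled cells 5598, which was 25.6%. Only 7.21% (6.69 to 7.77) of the LPS peaks at H3K4me3 were gained in shWdr82 cells, against 51.9% (50.4 to 53.5) at distal H3K4me1, 39.1% (37.8 to 40.3) at H3K36me3 and 67.0% (65.3 to 68.7) at none of these marks. In scrambled cells the same classes stood at 4.09% (3.68 to 4.52), 43.5% (1719 of 3953 peaks), 34.4% (33.3 to 35.5) and 52.3% (50.2 to 54.4). The order of the classes was thus the same with both hairpins. On the 20 chromosomes the gained share at H3K4me3 ran from 3.26% to 10.4% in shWdr82 cells and from 2.16% to 6.36% in scrambled cells, while that at distal H3K4me1 ran from 42.6% to 59.7% and from 37.1% to 52.7%, with no overlap between these classes. The chromosome ranges of the other classes overlapped with that of distal H3K4me1. With mark lists from LPS-treated control cells in place of untreated ones, the gained share was 51.7% at distal H3K4me1 and 7.01% at H3K4me3 in shWdr82 cells, and 42.2% and 4.12% in scrambled cells. Per the titles, the H3K4me3 list of this setting was from 4 h of LPS, and those of H3K4me1 and H3K36me3 from 45 min.

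Lost peaks were more evenly spread over the classes. There were 13048 lost peaks in shWdr82 cells, or 45.8% of the untreated list, and 15277 in scrambled cells, or 47.2%. The lost share at H3K4me3 was 24.1% (23.3 to 24.9) in shWdr82 cells and 26.0% (25.2 to 26.8) in scrambled cells. The other classes lay close together, between 57.9% at distal H3K4me1 and 61.3% at none of these marks in shWdr82 cells, and between 57.3% at H3K36me3 and 64.5% at none of these marks in scrambled cells. The excess of losses over gains cannot be told apart from the difference in list length. When both lists of a hairpin were cut to equal length, keeping the highest scores, gained and lost shares were 37.5% and 38.4% in shWdr82 cells, and 34.4% and 35.7% in scrambled cells, but lists of equal length can differ in these shares only through peaks that split or merge.

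**Figure D1:**
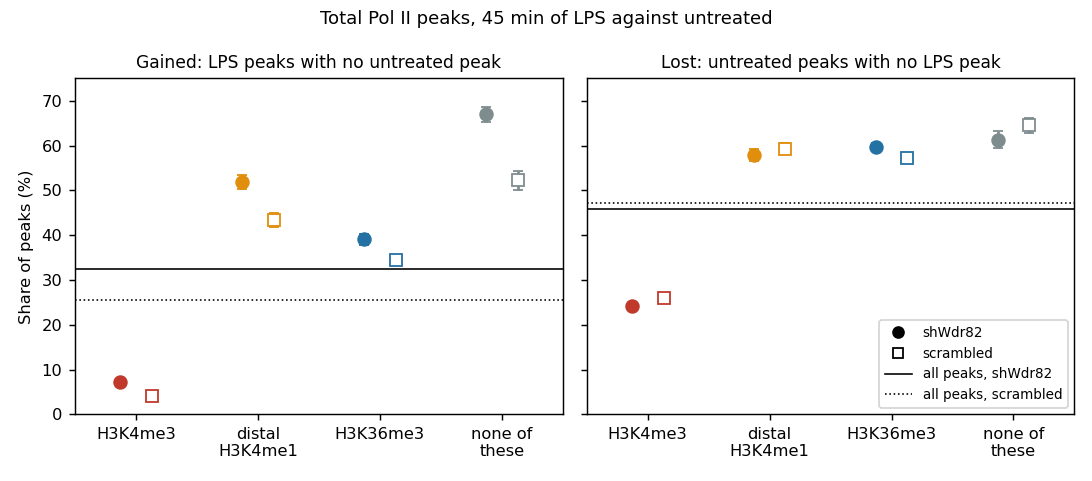
Share of LPS peaks gained (left) and of untreated peaks lost (right), in percent on the y axis, for the 4 classes on the x axis; filled circles are shWdr82, open squares scrambled, bars 95% exact binomial intervals, and lines the shares over all peaks. Gained shares at H3K4me3 are 7.21% and 4.09%, far under the lines at 32.4% and 25.6%, while lost shares of the other 3 classes lie within 57.3% to 64.5%.

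Peak strength, read from the peak caller's score within each list, moved with these shares. Over all classes, 54.4% of the lowest-scoring quartile of shWdr82 LPS peaks were gained and 9.67% of the highest-scoring quartile, and in scrambled cells 46.6% and 7.09%. The gap between distal H3K4me1 and H3K4me3 in the gained share was nevertheless present in every quartile. In the lowest it was 62.9% at distal H3K4me1 against 18.3% at H3K4me3 in shWdr82 cells, and 55.6% against 11.3% in scrambled cells. In the highest it was 33.8% against 3.54% and 26.7% against 1.78%. So even among the strongest LPS peaks, those at distal H3K4me1 often had no untreated counterpart and those at H3K4me3 nearly always had one.

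The lost share behaved otherwise. In the lowest quartile of untreated scores it was 70.3% at distal H3K4me1 and 69.8% (66.3 to 73.1) at H3K4me3 in shWdr82 cells, and 72.5% and 72.6% (69.0 to 75.9) in scrambled cells. A gap between them opened only toward the stronger peaks. In the highest quartile 24.6% (20.8 to 28.6) of distal H3K4me1 peaks and 6.49% (5.86 to 7.17) of H3K4me3 peaks were lost in shWdr82 cells, and 25.7% (22.4 to 29.2) and 7.21% (6.58 to 7.89) in scrambled cells. Among weak peaks the lost shares at H3K4me3 and at distal H3K4me1 were within counting error of each other, whereas the gained shares of weak peaks differed widely between the same classes.

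**Figure D2:**
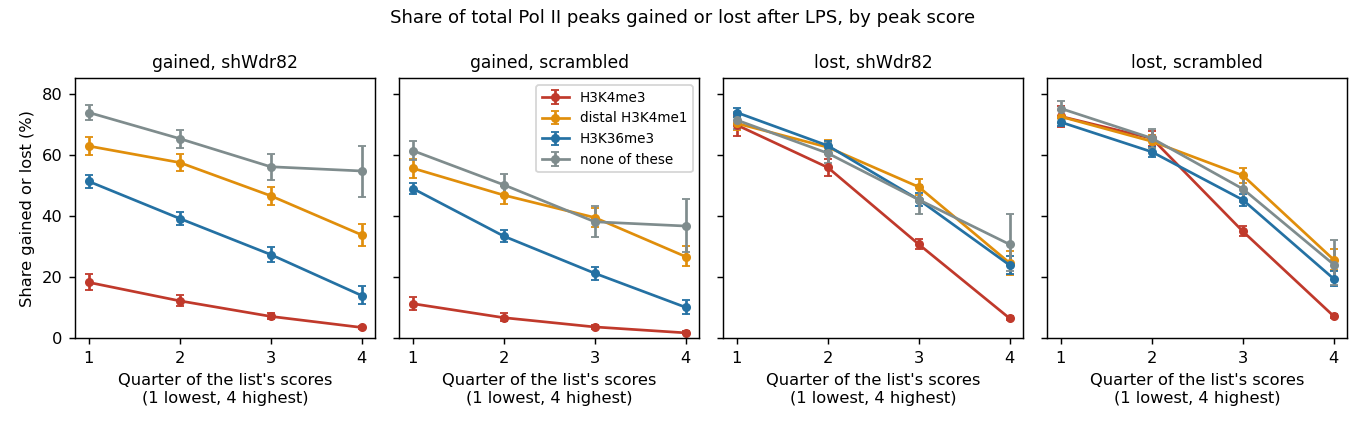
Share of peaks gained or lost, in percent, by quartile of the list's own scores on the x axis (1 lowest, 4 highest), for each hairpin; lines are the 4 classes and bars 95% exact binomial intervals. H3K4me3 lies below the other classes in all 4 quartiles of the gained panels, and meets them in the lowest quartile of the lost panels at about 70%.

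The gained peaks that did lie at H3K4me3 scored higher than other gained peaks and lay far from untreated Pol II. In shWdr82 cells the 647 gained H3K4me3 peaks had a median score of 230 and a median width of 2666 bp, against a median score of 106 over all 7222 gained peaks. In scrambled cells the 361 such peaks had a median score of 185 and a median width of 2395 bp, against a median score of 96.3 over all gained peaks. They were still weaker than the kept LPS peaks at H3K4me3, whose median scores were 667 and 542. Their median distance to the nearest untreated peak was 14708 bp in shWdr82 cells and 15549 bp in scrambled cells. Gained distal H3K4me1 peaks were about as far away in shWdr82 cells, at 14584 bp, and nearer in scrambled cells, at 11092 bp. Lost H3K4me3 peaks lay further away still from any LPS peak, at a median of 26544 bp in shWdr82 cells and 23078 bp in scrambled cells, and 865 of 2654 and 887 of 3003 of them had no LPS peak within 50000 bp. Few lost H3K4me3 peaks, 3.20% and 4.56%, lay under 1000 bp from an LPS peak. Gained peaks over H3K36me3, the mark of gene bodies, were nearest to untreated peaks, at a median of 5414 bp in shWdr82 cells and 4797 bp in scrambled cells, and 16.7% and 18.6% of them lay under 1000 bp away.

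Seen from the marks, fewer H3K4me3 regions of the untreated control list held Pol II with LPS than without. Of the 18951 H3K4me3 regions, 53.2% (52.5 to 53.9) held a Pol II peak with LPS against 64.3% (63.6 to 65.0) untreated in shWdr82 cells, and 52.0% (51.2 to 52.7) with LPS against 66.9% (66.2 to 67.6) untreated in scrambled cells. For every H3K4me3 region that lost its Pol II peak, 0.289 gained one in shWdr82 cells and 0.136 in scrambled cells. Distal H3K4me1 regions were nearer to balance. Of 41813 such regions, 13.5% held Pol II with LPS against 14.0% untreated in shWdr82 cells and 12.2% against 15.8% in scrambled cells, with 0.936 and 0.610 gaining a Pol II peak for every one that lost it. Behind the near-equal totals in shWdr82 cells stood a wide turnover, since 3137 distal regions gained a Pol II peak, 3350 lost it and 2488 kept it.

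Distal regions with and without H3K27ac in untreated empty vector cells differed in this balance. Among the 16259 with H3K27ac, Pol II was found at 20.2% with LPS against 22.5% untreated in shWdr82 cells, and at 18.3% against 26.4% in scrambled cells. Among the 25554 without H3K27ac, it was found at 9.18% (8.83 to 9.54) with LPS against 8.51% (8.17 to 8.86) untreated in shWdr82 cells, and at 8.38% (8.05 to 8.73) against 9.15% (8.80 to 9.51) in scrambled cells. The paired difference at the regions without H3K27ac was 0.67 points (0.27 to 1.06, Wald interval for paired shares) in shWdr82 cells and -0.77 points (-1.14 to -0.39) in scrambled cells, of opposite sign. Over H3K36me3, 23.2% of 37166 regions held Pol II with LPS against 30.5% untreated in shWdr82 cells, and 24.7% against 33.4% in scrambled cells.

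The 2 hairpins shared part of these changes. Of the peaks gained in shWdr82 cells, 32.8% (31.7 to 33.9) overlapped a peak gained in scrambled cells, against 15.0% of all shWdr82 LPS peaks. Taken from the other side, 43.6% (42.3 to 44.9) of the peaks gained in scrambled cells overlapped one gained in shWdr82 cells, against 16.9% of all scrambled LPS peaks. For lost peaks the shares were 57.4% against 32.7% of all untreated peaks from the shWdr82 side, and 50.4% against 30.7% from the scrambled side. Any LPS peak of the other hairpin was met by 50.0% of gained shWdr82 peaks and 61.7% of gained scrambled peaks. An untreated peak of the other hairpin was met by 21.2% and 19.2% of them. The same shares over all LPS peaks are not given here, so these overlaps have no background. Changed peaks of the lowest score quartile were shared least. From the shWdr82 side 21.7% of gained peaks were shared in the lowest quartile, 50.3% in the next to highest and 57.0% in the highest, and for lost peaks 42.4%, 74.2% and 62.7%. From the scrambled side the same shares were 32.5%, 61.7% and 56.4% for gained peaks, and 31.7%, 72.6% and 69.3% for lost peaks. The share was thus lower in the highest quartile than in the one before it in all but the gained shWdr82 peaks. The share over all LPS peaks of a class differed between the classes, and each value has to be read against it. Gained distal H3K4me1 peaks were shared at 41.2%, against 27.7% of all distal LPS peaks, from the shWdr82 side, and at 52.6% against 30.7% from the scrambled side. Gained H3K4me3 peaks were shared at 34.0%, against 5.44% of all H3K4me3 LPS peaks, from the shWdr82 side, and at 58.7% against 6.19% from the scrambled side. Yet 43.7% (39.9 to 47.7) of those gained in shWdr82 cells overlapped an untreated peak of scrambled cells. From the scrambled side, 26.6% (22.1 to 31.5) overlapped an untreated peak of shWdr82 cells. For these overlaps with untreated peaks, too, the share over all H3K4me3 LPS peaks is not given here. Gained peaks at none of these marks were shared at 22.9% (21.1 to 24.8) of 2032, against 18.1% of all such LPS peaks, from the shWdr82 side, and at 45.6% (42.7 to 48.5) of 1132 against 29.2% from the scrambled side.

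When the peaks of the 4 libraries were merged into 37496 regions, 1889 (5.04%) were held by both LPS libraries alone and 6541 (17.4%) by both untreated libraries alone. The patterns that follow no factor of the design, shWdr82 LPS with scrambled untreated and shWdr82 untreated with scrambled LPS, held 295 and 255 regions, and those held by both shWdr82 libraries alone or both scrambled libraries alone were 371 and 484. Patterns along the LPS contrast were thus several times more frequent than either of these. With all 4 lists cut to equal length by score, 2609 regions were held by both LPS libraries alone and 3961 by both untreated libraries alone. Of the regions of both LPS libraries alone, 786 (41.6%, 39.4 to 43.9) were distal H3K4me1 and 207 (9.58 to 12.5% of the set) were H3K4me3. Of the regions of both untreated libraries alone, 26.9% (25.8 to 28.0) were distal H3K4me1 and 29.4% (28.3 to 30.5) were H3K4me3. Regions held by all 4 libraries, 10803 in number, were 12.3% distal H3K4me1 and 69.7% H3K4me3. Over all 37496 regions the shares were 22.0% and 31.7%. Many distal H3K4me1 regions also overlapped H3K36me3 of untreated scrambled cells. Such overlap was found at 29.0% of those of both LPS libraries alone, 43.9% of those of both untreated libraries alone and 65.4% of those of all 4 libraries. In 1 library the class with none of these marks stood out: it made up 42.4% of the 3171 regions of the shWdr82 LPS library alone, against 21.3% of the 1757 regions of the scrambled LPS library alone.

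**Figure D3:**
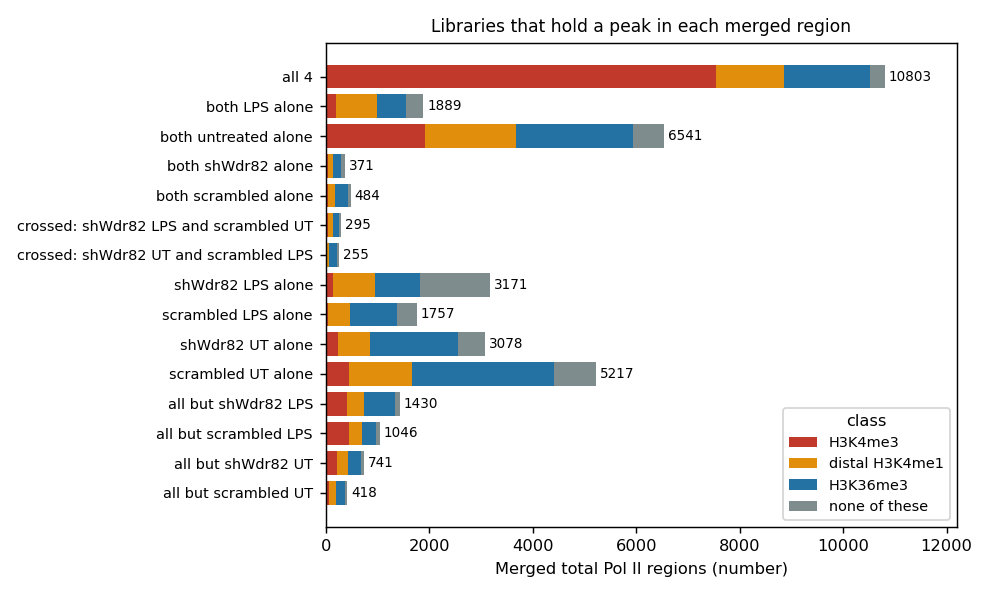
Number of merged total Pol II regions on the x axis by which of the 4 libraries hold a peak there, coloured by class. All 4 libraries share 10803 regions, 1889 are held by both LPS libraries alone and 6541 by both untreated libraries alone, against 295 and 255 in the crossed patterns.

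The strongest regions of both LPS libraries alone were chosen by the lower of their 2 scores, with ties at the score ceiling of about 3100 ordered by distance from the nearest untreated peak of either hairpin. Positions are on the mouse build mm9 and counted from 1. The first was chr5:99636685-99684928, 48244 bp long and in the H3K4me3 class, at 105643 bp from any untreated Pol II peak, and each of the 4 libraries for Ser2P, H3K36me3, H3K4me1 and H3K27ac had a peak in it. The absence of an untreated total Pol II peak there therefore did not go with absence of the other marks of transcription. The second was chr10:37052852-37069676, a distal H3K4me1 region of 16825 bp at 99430 bp from any untreated peak, with Ser2P in both LPS libraries alone and H3K27ac in all 4. Ser2P in both LPS libraries alone was likewise seen at the distal regions chr2:129185560-129200569 (15010 bp long) and chr9:7271920-7289018 (17099 bp long) and at the H3K4me3 region chr16:84612709-84629101 (16393 bp long). Of these 10 regions 7 were distal H3K4me1 and 3 were H3K4me3. Ser2P was found in both LPS libraries alone at 4 of them, in all 4 libraries at 2 and in none at 3. At 7 of the 10 an H3K27ac peak was present in at least 1 untreated library. The 10 are not all separate places, since chr16:84601830-84611678 lay next to chr16:84612709-84629101. They were picked by score, and a peak anywhere in them counted. The share of the same patterns over all regions of both LPS libraries alone is not given here, so these counts have no background.

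The strongest regions of both untreated libraries alone held 4 H3K4me3, 3 distal H3K4me1 and 3 H3K36me3 regions. The first was chr1:64161263-64170959, an H3K4me3 region of 9697 bp at 64358 bp from any LPS peak, with no Ser2P peak in any library and with H3K27ac in all 4. The second was the distal region chr14:41706471-41725566, 19096 bp long and 53009 bp from any LPS peak, with Ser2P in both untreated libraries alone and no H3K27ac peak. The third, chr17:33740762-33750888, was 10127 bp of H3K36me3 at 40778 bp from any LPS peak.

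Some gained peaks lay in long runs. Gained peaks less than 5000 bp apart were joined, which gave 4371 runs. Of these, 1601 had gained peaks of both hairpins, and 167 of the 1601 had at least 3 peaks in each. Lost peaks formed 9961 runs, of which 5593 had lost peaks of both hairpins, and 434 of the 5593 had at least 3 peaks in each. The gained run with the most covered DNA in both hairpins was chr17:7380257-7467827, where 9 shWdr82 peaks covered 73588 bp and 7 scrambled peaks covered 81584 bp, with Ser2P in both LPS libraries alone and no H3K4me3 peak. The run chrX:126346783-126418771 held 17 gained shWdr82 peaks and 16 gained scrambled peaks over 71989 bp, and had H3K4me1 and H3K36me3 peaks in all 4 libraries of each mark, while Ser2P was found in the shWdr82 untreated and the scrambled LPS library. The longest lost run by the same measure was chr5:135888980-135967083, where 11 shWdr82 peaks covered 56676 bp and 12 scrambled peaks covered 58885 bp, with Ser2P in both untreated libraries alone and H3K27ac in all 4. Over the 10 gained runs ranked highest, Ser2P was found in both LPS libraries alone at 3, in all 4 libraries at 4 and in none at 2, and over the 10 lost runs it was found in both untreated libraries alone at 3, in all 4 libraries at 3 and in none at 3. All 10 gained and all 10 lost runs of this ranking had H3K36me3 peaks in all 4 libraries of that mark. H3K4me1 peaks were likewise in all 4 libraries at 9 gained and 10 lost runs. These runs were ranked by length and a peak anywhere in them counted. The share over all runs is not given here, so these counts have no background. In class, the gained runs were 6 distal H3K4me1 and 4 H3K4me3, and the lost runs 3 distal H3K4me1 and 7 H3K4me3.

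Kept peaks at H3K4me3 were narrower with LPS. The log2 ratio of LPS width over untreated width was taken for the 10907 pairs in shWdr82 cells and 11759 in scrambled cells in which each peak overlapped only the other. At H3K4me3 the median log2 ratio was -0.33 in shWdr82 cells (7068 pairs, median width 1864 bp with LPS against 2548 bp untreated) and -0.19 in scrambled cells (7187 pairs, 2100 bp against 2542 bp). It was below 0 on 20 of 20 chromosomes with both hairpins, from -0.40 to -0.21 in shWdr82 cells and from -0.29 to -0.11 in scrambled cells. Kept distal H3K4me1 peaks had median log2 ratios of 0.02 and 0.04, H3K36me3 peaks -0.10 and -0.04, and peaks with none of these marks 0.06 and 0.05, in shWdr82 and in scrambled cells. The distal peaks spread widely in both directions: the central 80% ran from -1.39 to 1.59 in shWdr82 cells and from -1.10 to 1.24 in scrambled cells.

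The width ratio moved with the score used to rank the pairs. In the highest quartile of untreated scores the median log2 ratio was -0.36 at H3K4me3, -0.24 at distal H3K4me1 and -0.27 at H3K36me3 in shWdr82 cells, and -0.22, -0.15 and -0.18 in scrambled cells. In the lowest quartile it was 0.11 at H3K4me3 (166 pairs), 0.54 at distal H3K4me1 and 0.34 at H3K36me3 in shWdr82 cells, and 0.24 (118 pairs), 0.56 and 0.52 in scrambled cells. The sign of the median thus turned with the untreated score in these classes. The class difference was smaller among pairs with the highest untreated scores than over all pairs. When pairs were ranked by their LPS score instead, a ranking chosen after the first had been seen, the H3K4me3 median lay below 0 in all 4 quartiles, between -0.52 and -0.19 in shWdr82 cells and between -0.41 and -0.07 in scrambled cells. Distal H3K4me1 peaks then ran from -0.52 in the lowest quartile to 0.73 in the highest in shWdr82 cells and from -0.35 to 0.44 in scrambled cells.

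**Figure D4:**
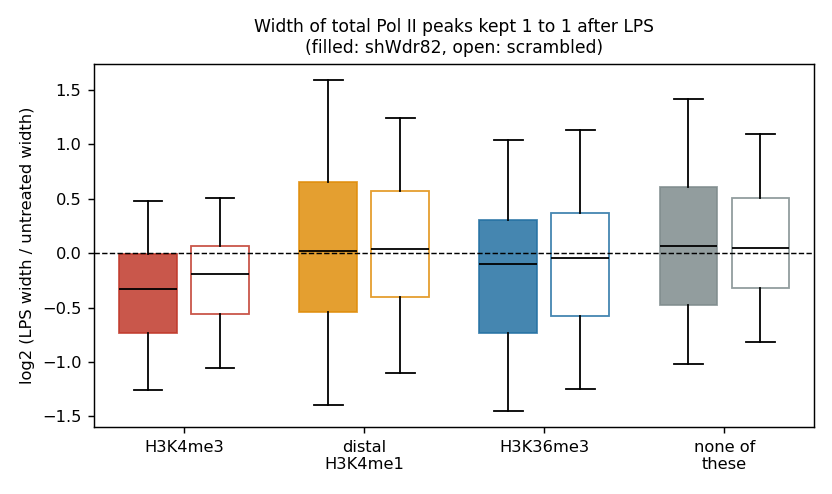
Log2 ratio of LPS over untreated width on the y axis for peaks kept 1 to 1, by class on the x axis, filled for shWdr82 and open for scrambled; the line in each box is the median, the box spans the central 50% and the whiskers the central 80% of pairs. The H3K4me3 medians are -0.33 and -0.19, while those of distal H3K4me1 peaks are 0.02 and 0.04.

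With LPS a larger part of a kept promoter peak lay inside the H3K4me3 region. Among 7035 pairs in shWdr82 cells with both peaks at H3K4me3, the median share of the peak's length inside H3K4me3 was 91.5% with LPS against 76.8% untreated, and 33.5% of LPS peaks lay wholly inside against 11.7% of untreated peaks. In scrambled cells (7142 pairs) the median share was 85.3% with LPS against 76.0% untreated, and 24.2% against 11.4% lay wholly inside. The median length outside H3K4me3 was 145 bp with LPS against 543 bp untreated in shWdr82 cells, and 279 bp against 560 bp in scrambled cells. The length inside H3K4me3 was also smaller with LPS in 64.5% of shWdr82 pairs and 54.3% of scrambled pairs. Both ends of the peak were pulled in at 59.0% of H3K4me3 pairs in shWdr82 cells and 50.7% in scrambled cells.

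Large changes of width went both ways. In shWdr82 cells 903 pairs (8.28%) were at least 2-fold wider with LPS and 1719 (15.8%) at least 2-fold narrower, and in scrambled cells 919 (7.82%) and 1373 (11.7%). At distal H3K4me1 these shares were 17.2% wider and 15.6% narrower in shWdr82 cells, and 217 and 166 of 1514 pairs in scrambled cells. Of 7295 regions with such a pair in both hairpins, 54.8% were narrower and 21.3% wider in both, while at distal H3K4me1 (651 regions) 30.9% were narrower and 44.9% wider in both. The number of peaks of at least 10000 bp was 1883 with LPS against 1763 untreated in shWdr82 cells, and 1652 against 1735 in scrambled cells. As shares of each list these were 8.44% against 6.19% in shWdr82 cells, and 7.55% against 5.36% in scrambled cells. Distal H3K4me1 peaks of this width numbered 544 with LPS against 434 untreated in shWdr82 cells, and 408 against 405 in scrambled cells. They made up 13.5% against 8.58% of the distal H3K4me1 peaks in shWdr82 cells, and 10.3% against 6.73% in scrambled cells. The widest peak was 98889 bp with LPS against 61070 bp untreated in shWdr82 cells, and 141754 bp against 60744 bp in scrambled cells.

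Single regions showed Pol II peaks that reached far beyond a promoter in 1 condition alone. At the H3K4me3 region chr7:149262356-149282253 the peak was 19898 bp with LPS against 954 bp untreated in shWdr82 cells, and 19538 bp against 909 bp in scrambled cells. In shWdr82 cells 18585 bp of this were added on its left, at lower coordinates, and 359 bp on its right. At chr2:164879042-164907275 it was 28234 bp with LPS against 1284 bp untreated in shWdr82 cells, and 24595 bp against 1310 bp in scrambled cells, with 25539 bp added on the right in shWdr82 cells. Both regions had Ser2P in both LPS libraries alone, as did 4 of the 5 regions with the largest widening in both hairpins. In shWdr82 cells the widening was mostly to 1 side at these regions of chr7 and chr2. It went to both sides at chr4:11622445-11645170, also among the 5, with 8588 bp added on the left and 13051 bp on the right. The reverse was seen at the H3K4me3 region chr17:48482199-48509310, with 1133 bp with LPS against 27112 bp untreated in shWdr82 cells and 1238 bp against 21991 bp in scrambled cells, and with Ser2P in both untreated libraries alone, as at 2 of the 5 regions with the largest narrowing in both hairpins. At chr8:122325752-122366257 the peak was 1790 bp with LPS against 40437 bp untreated in shWdr82 cells, and 4152 bp against 40335 bp in scrambled cells. These regions were ranked by width change, and a Ser2P peak anywhere in them counted. The share of the same Ser2P patterns over all pairs is not given here, so these counts have no background.

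Elongating Pol II, measured with a separate antibody against Ser2P in cells with 45 min of LPS or untreated, was compared at the merged total Pol II regions. Ser2P peaks were found at 24.8% (22.9 to 26.8) of the 1889 regions of both LPS libraries alone with LPS, against 7.04% (5.93 to 8.29) untreated, in shWdr82 cells, and at 20.0% (18.2 to 21.9) against 6.51% (5.44 to 7.72) in scrambled cells. The paired difference was 17.8 points (15.9 to 19.7) in shWdr82 cells and 13.5 points (11.8 to 15.2) in scrambled cells. At the 6541 regions of both untreated libraries alone it had the opposite sign, with 13.1% with LPS against 26.1% untreated in shWdr82 cells and 14.3% against 28.2% in scrambled cells. At the 10803 regions of all 4 libraries the 2 treatments were close, at 36.1% with LPS against 34.8% untreated in shWdr82 cells and 36.2% against 36.4% in scrambled cells. An independent antibody thus moved in the same direction as total Pol II in these sets, although most regions of both LPS libraries alone had no Ser2P peak in any library of a hairpin.

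The classes differed in this. Regions of both LPS libraries alone with none of the marks had Ser2P at 44.6% with LPS against 10.2% untreated in shWdr82 cells, and at 42.5% against 9.34% in scrambled cells (332 regions). At the 786 distal H3K4me1 regions of the set the shares were 20.0% against 4.07% in shWdr82 cells and 11.1% against 3.31% in scrambled cells. The difference at distal regions was thus 15.9 points (13.2 to 18.6) in shWdr82 cells and 7.76 points (5.76 to 9.76) in scrambled cells, with intervals that do not overlap, and whether the hairpin made that difference cannot be told apart from the difference between single libraries. At H3K36me3 regions of the set the differences were nearly equal, at 12.1 points (8.95 to 15.2) and 12.4 points (9.48 to 15.3).

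H3K27ac, measured after 4 h of LPS per the titles and with an empty vector as the control, was compared at the same regions, so its time differs from that of Pol II. At regions of both LPS libraries alone it was found at 44.6% with LPS against 39.5% untreated in shWdr82 cells, and at 45.3% against 37.6% in empty vector cells. At regions of both untreated libraries alone the shares were 35.8% with LPS against 48.7% untreated in shWdr82 cells, and 36.6% against 48.2% in empty vector cells. The contrast was widest at the 1921 H3K4me3 regions of that set, where H3K27ac was found at 56.9% with LPS against 85.2% untreated in shWdr82 cells and at 59.7% against 84.0% in empty vector cells. At the 7534 H3K4me3 regions with Pol II in all 4 libraries, it was found at 90.4% with LPS against 96.5% untreated and at 91.0% against 96.3%. H3K4me3 regions that no longer had a listed total Pol II peak at 45 min thus also had fewer H3K27ac peaks at 4 h. H3K4me1 at regions of both LPS libraries alone was found at 53.7% with LPS against 50.5% untreated in shWdr82 cells, and at 55.1% against 52.8% in scrambled cells. At regions of both untreated libraries alone it was found at 50.1% against 49.6% in shWdr82 cells, and at 53.5% against 52.8% in scrambled cells. H3K4me1 was thus slightly higher with LPS in both sets, though the shWdr82 difference in the second was only 0.57 points (-0.12 to 1.26). At the regions of all 4 libraries H3K4me1 was higher with LPS too, by 1.72 points in shWdr82 cells and 1.15 points in scrambled cells. H3K36me3 in the first set stood at 45.3% with LPS against 44.8% untreated in shWdr82 cells, and at 44.3% against 45.2% in scrambled cells. In the second set it stood at 49.6% against 49.2% in shWdr82 cells, and at 48.2% against 51.3% in scrambled cells, so its sign differed between the hairpins in both sets.

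**Figure D5:**
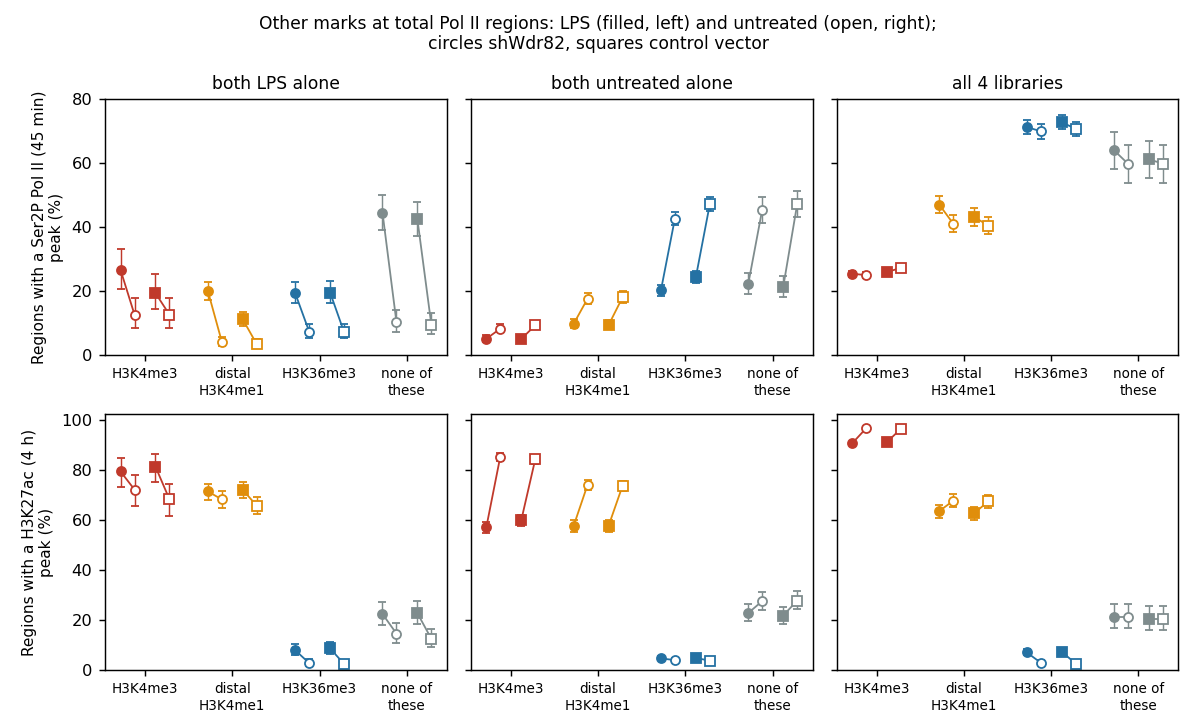
Share of merged total Pol II regions with a peak of Ser2P Pol II (top) or H3K27ac (bottom), in percent, for regions of both LPS libraries alone, both untreated libraries alone and all 4 libraries, by class; filled symbols are LPS and open ones untreated, circles shWdr82 and squares the control vector, with 95% exact binomial intervals. Ser2P is higher with LPS in the left panel (44.6% against 10.2% at none of these marks in shWdr82 cells), and H3K27ac is lower with LPS at the H3K4me3 regions of the middle panel (56.9% against 85.2%).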

How the data were processed

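The submitters' processing notes name Bowtie 0.12.7, MACS 1.4 and the build mm9, without saying what each was used for. Whether an input library was used is not given in the sources used here. The deposited lists hold start, end and the authors' peak score (from 50 to 3233 in these 4 lists, with many peaks at the ceiling near 3100), and each list has its own peak borders. The score was used only to rank or filter within a list. Lists were compared with Python 3.11.15, NumPy 2.4.6 and SciPy 1.17.1, and the overlap, pairing and distance code was tested on simulated peaks against a slow direct count. Shares carry exact (Clopper-Pearson) 95% intervals, and paired differences Wald intervals. Members, classes and lists were chosen with earlier results of these data known. Regions could be named by rank: the 10 highest in each direction by the lower of the 2 scores, the 10 longest runs and the 5 largest width changes in both hairpins. Gene lists were not used and no sequence is shown, because the gene tables at hand are on GRCm38 and coordinates were not converted.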

Additional observations from a re-analysis of the deposited data

Results flagged for a closer look

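The following values went one way in shWdr82 cells and the other way in control cells, with 1 library each, and none of these differences was tested. The median width of the whole list differed between LPS and untreated by -117 bp in shWdr82 cells and by 177 bp in scrambled cells. The share of distal H3K4me1 regions without H3K27ac that held total Pol II differed by 0.67 points in shWdr82 cells and -0.77 points in scrambled cells. Ser2P at the regions with total Pol II in all 4 libraries differed by 1.33 points (0.75 to 1.91) in shWdr82 cells and -0.27 points (-0.83 to 0.29) in scrambled cells. At the H3K4me3 regions of that set the Ser2P difference was 0.41 points (-0.29 to 1.11) in shWdr82 cells and -1.35 points (-2.05 to -0.66) in scrambled cells. H3K36me3 at the regions of both LPS libraries alone differed by 0.48 points (-0.66 to 1.62) in shWdr82 cells and -0.90 points (-2.19 to 0.39) in scrambled cells. At the regions of both untreated libraries alone it differed by 0.40 points (-0.21 to 1.00) in shWdr82 cells and -3.13 points (-3.81 to -2.45) in scrambled cells, and at the regions of all 4 libraries the scrambled difference was -2.65 points (-3.15 to -2.14).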

How the results depend on the processing

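The settings were applied to gained and lost shares, to the width ratio over all pairs and to the counts of merged regions. Shares and counts cannot change sign. The width ratio and the differences between class shares can, and they kept theirs. Of 62 values of the main results under other settings, 35 moved beyond the main setting's counting interval or, for counts, beyond a set fold. Of 148 values by class or for the crossed patterns, 66 did. The shares of the marks at Pol II regions, of Pol II at mark regions and the width ratios by class were not recomputed under them. Widths by class were ranked anew by LPS score after seeing the data, and the lowest-quartile H3K4me3 median was then -0.52 in shWdr82 cells and -0.41 in scrambled cells, against 0.11 and 0.24 when ranked by untreated score. All settings kept the distal H3K4me1 share above the H3K4me3 share, for gained and for lost peaks. In what follows the value for shWdr82 cells comes before that for scrambled cells. With an overlap of at least 50% of the shorter peak, gained shares were 33.9% and 27.2% and lost shares 47.0% and 48.5%. When a peak within 1000 bp counted as kept, they were 28.4% and 21.9% gained, and 42.6% and 43.2% lost. With a score of at least 100 they were 30.4% and 23.8% gained, and 43.1% and 45.6% lost. With lists cut to equal length by score they were 37.5% and 34.4% gained, and 38.4% and 35.7% lost, and the median log2 width ratio over all pairs was -0.27 and -0.16, against -0.25 and -0.13 with whole lists.

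The gained share at distal H3K4me1 minus that at H3K4me3 was 44.7 and 39.4 points. It was 41.0 and 35.7 points within 1000 bp, 50.9 and 43.8 points with a score of at least 100, 50.9 and 49.6 points with equal numbers of peaks, and 39.9 and 35.4 points with each mark counted on its own. With classes from shWdr82 untreated marks it was 37.6 points in scrambled cells. For lost peaks the difference was 33.8 and 33.3 points. It was 31.8 and 31.5 points within 1000 bp, 31.8 and 30.0 points with equal numbers of peaks, 31.0 and 30.7 points with each mark on its own, and 31.8 points in scrambled cells with a score of at least 100. Settings with another distal minimum (1000 or 5000 bp), and with marks of LPS-treated control cells, which was chosen after seeing the data, moved these differences by less than counting error. Regions of both LPS libraries alone numbered 1889, and 1409 to 2609 under the settings added after seeing the data. Regions of both untreated libraries alone numbered 6541, against 4958 with a score of at least 100 and 3961 with equal numbers of peaks.

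No paired analysis was possible because the groups share only 1 replicate number, and for the same reason leaving a library out gives no value. Every LPS contrast was made within a hairpin, and a model of both hairpins together, which would leave 1 residual degree of freedom, was not run. The width ratio has no value within 1000 bp, since peaks that do not touch have no 1 to 1 overlap. Depth is unknown, and its part in weak peaks missing from a list was not tested.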
